A study of Rattus norvegicus with 12 samples.

Results

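The genes described here encode the soluble hydrolases of the lysosome, the proteins of its membrane, and the proteins that mature and deliver them. They were the rows of the expression table whose pathway annotation holds exactly the KEGG term Lysosome, leaving out the cathepsins, the subunits of the vacuolar proton pump and 7 single genes (Lgmn, Lipa, Acp5, Cd68, Tcirg1, Slc11a1 and Slc11a2). This left 93 of the 125 genes with the term, of 22601 genes in the table, and 32 were left out. The rule itself uses no expression value. The 93 genes comprised 16 glycosidases, 7 sulfatases, 8 lipid hydrolases and their activator proteins, 7 phosphatases, nucleases, amidases and peptidases, 10 structural membrane proteins, 10 transporters and channels, 7 proteins of enzyme maturation and sorting, 25 coat and adaptor subunits, and 3 genes outside these classes.

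The samples came from 8-week-old Sprague Dawley rats with a drilled critical-size defect in the distal femur, and tissue from the defect was taken 2 weeks later. There were 4 groups of 3 libraries each: the β-TCP scaffold group (labelled TCP), with a resorbable calcium phosphate ceramic, the PCL scaffold group, with a slowly degrading polyester, the hydrogel group, with gelatin methacryloyl, and the control group, in which the defect was made and nothing was implanted. The number of animals behind each library is not given in the sources used here, so a p-value here reflects only how these libraries vary, which may be technical. The labels and the study's methods name different RNA and library kits and sequencers. RNA abundance was deposited as FPKM, fragments scaled by transcript length and by the number of mapped fragments, which corrects for gene length and library size.

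The lysosome is the acidic compartment in which cells break down material taken up from outside or delivered by autophagy. Its hydrolases are made in the endoplasmic reticulum, tagged with mannose 6-phosphate in the Golgi, and carried to endosomes in clathrin-coated vesicles. The membrane is protected by heavily glycosylated proteins, and transporters export the products of digestion. In bone, macrophages use lysosomes to digest cell debris and particles, and osteoclasts fuse lysosome-related vesicles with the membrane facing the bone to release their content into the resorption pit. Transcription factors of the MiT/TFE family bind a short E-box element in the promoters of many lysosomal genes.

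Several properties of the libraries bear on every result below. The depth recovered from the FPKM values was 15035925 to 17357830 fragments per library, and every one of the 93 genes came out as whole fragments within 0.01. Libraries 2 and 3 of the β-TCP group were much closer to each other than any other replicate pair: the mean chi-square per gene of their fragments was 2.144, against 30.37 to 301.4 in the other 11 pairs within a group. Their median chi-square of 0.7142 was above the 0.455 that counting noise alone gives, but separate preparations from 1 tissue or RNA sample could also give such a value. Whether they came from separate animals cannot be told from the files. They were kept as labelled, as separate libraries, so an n of 3 and an SD in the β-TCP group may count 1 sample more than once, and the main counts are given with them averaged as well. Control library 3 stood apart, with 13351 summed FPKM of 10 cartilage markers against 2338 and 2196 in control libraries 1 and 2, and with hemoglobin genes at 1.03% of all FPKM against 9.23% and 14.6%. Hemoglobin genes took 3.49% to 7.41% of all FPKM in the β-TCP group, 10.7% to 25.8% in the PCL group and 10.01% to 19.0% in the hydrogel group. Osteoblast markers, which mark the bone tissue named in the labels, summed to 6311 FPKM or more in every library.

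Lysosomal genes were higher in the β-TCP group than in the other 3 groups, and the hydrolases and their activators carried most of this. Of the 88 lysosomal genes that could be tested, 18 rose and none fell in the β-TCP group against the control group at an adjusted p under 0.05 (limma, adjusted over 12633 genes), where 4.22% of all genes tested rose and 0.562% fell. Against the hydrogel group 29 rose and none fell, where 5.17% of all genes rose and 0.966% fell. Against the PCL group, 1 rose (Gla) and none fell, where 0.57% of all genes rose and 0.0871% fell. At an unadjusted p under 0.05 in limma, 42 were higher and 0 lower than in the control group, 48 higher and 7 lower than in the hydrogel group, and 37 higher and 3 lower than in the PCL group. Over all 12633 genes these counts were 1857 higher and 411 lower against control, 2039 and 2301 against hydrogel, and 1650 and 1180 against PCL. The lysosomal count against PCL was 21 higher and 7 lower with hemoglobin left out of the total, where 681 of all genes were higher and 2040 lower. It was 31 higher and 7 lower with median-of-ratios scaling, where 1318 of all genes were higher and 1777 lower. The summed FPKM of all 93 genes averaged 7559 ± 709 in the β-TCP group, 5872 ± 791 in the PCL group, 4756 ± 732 in the hydrogel group and 4829 ± 366 in the control group (SD, n = 3 each). The 3 β-TCP libraries held 6741, 7938 and 7998 summed FPKM, and 6741 was above the highest of the other 9 libraries, 6570 in the PCL group. Hemoglobin genes took 7.41% of all FPKM in that β-TCP library and 10.7% in that PCL library. With hemoglobin left out of the total, the order of those libraries turns.

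These calls depended on libraries 2 and 3 of the β-TCP group. With the pair averaged as 1 library, limma called 0 lysosomal genes in the β-TCP group against the control, hydrogel and PCL groups. At an unadjusted p under 0.05, 31 were then higher and 0 lower against control, 45 higher and 2 lower against hydrogel, and 27 higher and 1 lower against PCL. Of all 12576 genes in that fit, 1286 were higher and 241 lower against control. The same counts were 1389 and 1116 against hydrogel, and 985 and 523 against PCL. Leaving out either library of the pair also gave 0 calls against each of the 3 groups. At an unadjusted p under 0.05, 31 lysosomal genes were higher than control without library 2, where 1311 of all genes were. Without library 3 the counts were 32 and 1285. Across all genes these fits called 8 against control in each case, so the loss was not limited to lysosomal genes. Without β-TCP library 1 the group was the close pair alone. That fit called 16 lysosomal genes higher against control, 26 against hydrogel and 0 against PCL, and 0 lower. Of all genes it called 452 higher and 59 lower against control, 593 and 76 against hydrogel, and 40 and 4 against PCL. The median log2 fold change of the lysosomal genes against control was 0.37 with the pair averaged and 0.38 with all 12 libraries. A test on fragments with limma-voom, chosen after the values were seen, called 14 lysosomal genes higher against control, 35 higher against hydrogel and 0 against PCL, and 0 lower against each, with all libraries kept. Of all genes it called 318 higher and 49 lower against control, 915 and 318 against hydrogel, and 39 and 5 against PCL. The 18 calls against control became 4 without control library 2 and 24 higher with 1 lower without control library 3. The 29 calls against hydrogel became 13 without hydrogel library 1, 6 without hydrogel library 3, and 48 higher with 9 lower without control library 3. The single call against PCL became 10 higher without hydrogel library 3 and 21 higher with 6 lower without control library 3. The calls over all genes moved as well. Without control library 3 they were 674 higher and 650 lower against control, 1843 and 2885 against hydrogel, and 818 and 1087 against PCL. Against control they were 99 and 23 without control library 2. Without hydrogel library 1 they were 208 and 19 against hydrogel. Without hydrogel library 3 they were 112 and 2 against hydrogel, and 207 and 20 against PCL.

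**Figure D1:**
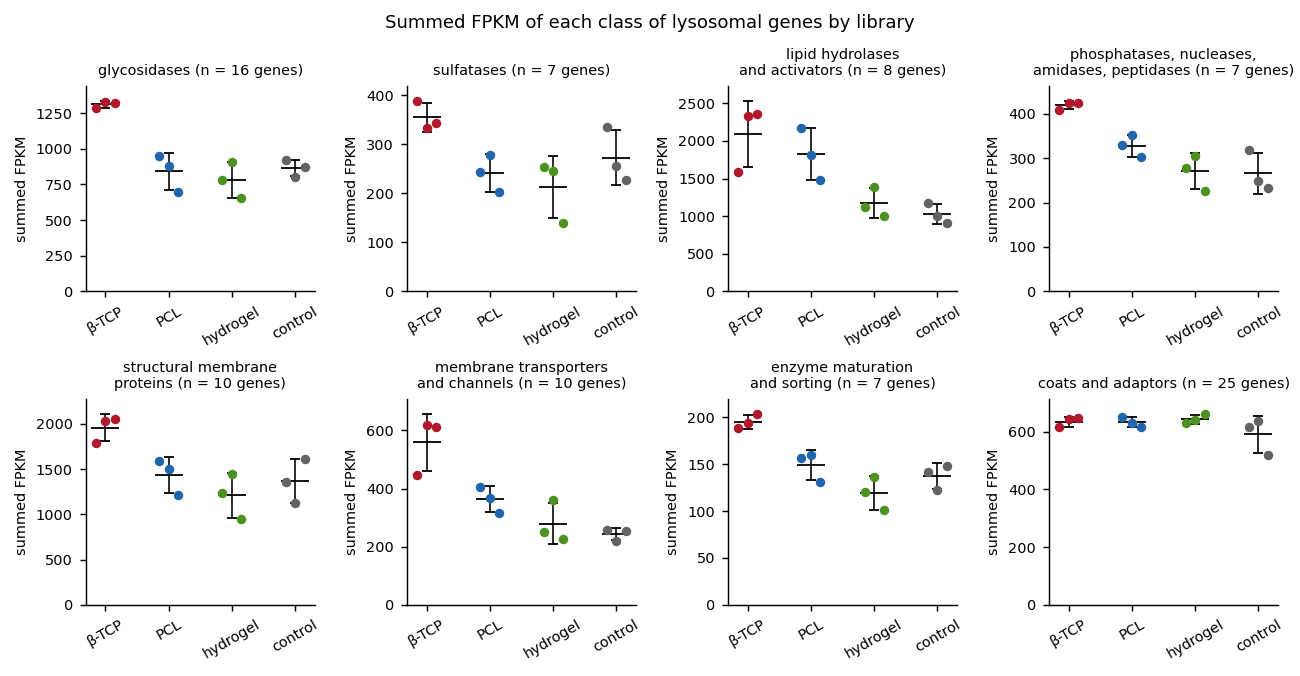
Each panel plots the summed FPKM of 1 class of lysosomal genes (vertical axis) in the 12 libraries by group (horizontal axis), with points for libraries, a wide bar for the group mean and whiskers for ± 1 SD. The 3 β-TCP libraries lie above all other libraries for glycosidases (1285 to 1326 against at most 945.6), whereas the coats and adaptors lie at 614 to 646 in the β-TCP group and 517 to 637 in the control group.

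The lysosomal genes were set beside all genes tested, which include them. Over all 12633 genes the median log2 fold change was 0.03 in the β-TCP group against control, against 0.38 over the 88 lysosomal genes. The same medians were -0.06 over all genes and 0.50 over lysosomal genes against hydrogel, and 0.04 and 0.32 against PCL. In 36 of the 88 tested lysosomal genes all 3 β-TCP libraries were above all 9 others, where 8.72% of all genes showed this, and in 44 they were above the 3 control libraries, where 17.9% did. The β-TCP group had the highest of the 4 group means for 63 lysosomal genes, the PCL group for 10, the hydrogel group for 14 and the control group for 1. Over all genes tested, the highest mean lay in the β-TCP group for 30.7%, in the PCL group for 14.6%, in the hydrogel group for 39.9% and in the control group for 14.8%. The lowest mean of a lysosomal gene lay in the hydrogel group for 39, in the control group for 27, in the PCL group for 12 and in the β-TCP group for 10.

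The study's own rule called a gene that changed more than 2-fold at an unadjusted p under 0.05. By it, 6 lysosomal genes were higher and 0 lower in β-TCP against control. These were Npc2, Sgsh, Gm2a, Ppt1, Gla and Psap, and 2.49% of all genes were higher and 1.03% lower by this rule. Psap was just inside the 2-fold limit with a log2 fold change of 1.0001, and Asah1 just outside it with 0.996. The count was 10 without β-TCP library 1 (9 higher and 1 lower) and 10, all higher, without control library 1. Against hydrogel 12 were higher (Asah1, Cd63, Dnase2, Gla, Gnptab, Gusb, Hyal1, Litaf, Naglu, Npc2, Ppt1 and Sgsh) and 1 was lower (Mcpt8l2), where 3.36% of all genes were higher and 5.02% lower. That count of 13 became 23 without hydrogel library 2 (21 higher and 2 lower) and 4 without hydrogel library 3 (3 higher and 1 lower). Against PCL 2 were higher (Gla and Hyal1) and 1 was lower (Mcpt8l2), where 1.14% of all genes were higher and 3.34% lower, and none passed without PCL library 3.

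**Figure D2:**
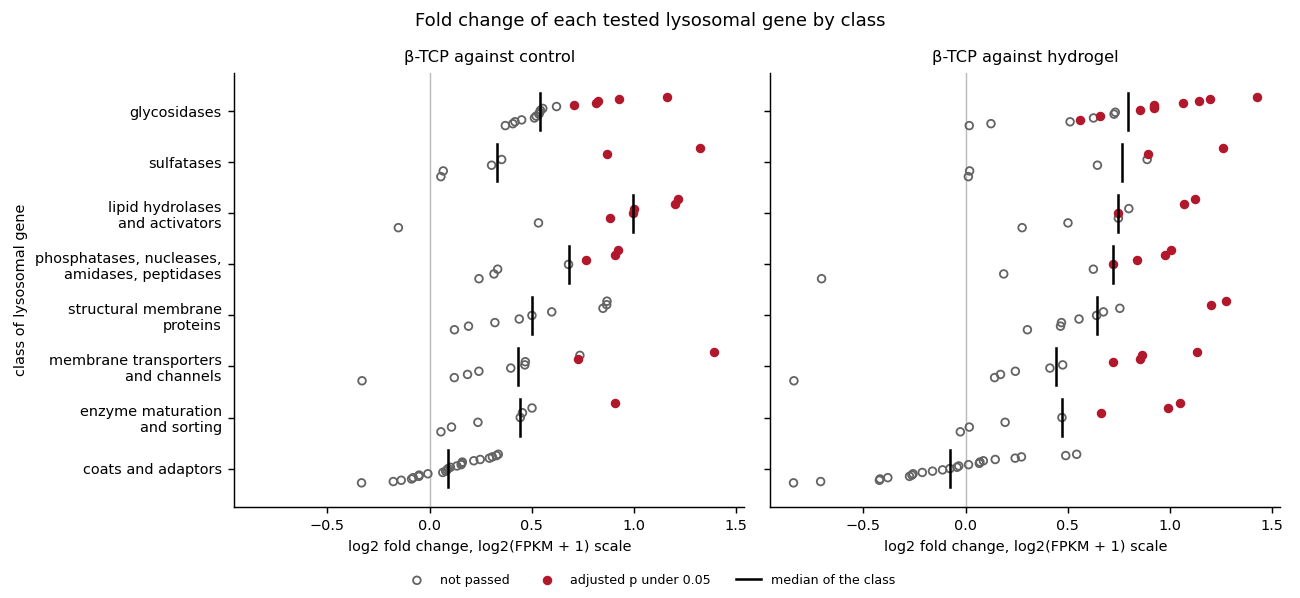
Log2 fold change on the log2(FPKM + 1) scale (horizontal axis) of the tested lysosomal genes in the named classes, by class (vertical axis). The β-TCP group is set against control (left) and against hydrogel (right). Filled points have an adjusted p under 0.05, open points do not, and a vertical line marks the class median. The medians of the classes drawn run, against control, from 0.09 for coats and adaptors to 0.996 for lipid hydrolases and activators. The 3 genes outside these classes are not drawn, and their median against control was -0.175.

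Glycosidases remove sugars from glycoproteins, glycolipids and glycosaminoglycans. All 16 were tested, and all 16 had a positive log2 fold change in β-TCP against control (0.37 to 1.16, median 0.54). Gla, Gusb, Naglu, Galc and Manba rose against control, and 10 rose against hydrogel, among them Gla, Naglu, Gusb, Hyal1, Hexa, Glb1, Manba and Fuca1. In 14 of the 16 the β-TCP libraries lay above all 9 others, the exceptions being Neu1 and Man2b1. The summed FPKM of the class was 1311 ± 23.2 in the β-TCP group, 840 ± 131 in the PCL group, 780 ± 127 in the hydrogel group and 866 ± 57.7 in the control group (SD, n = 3 each). With 3 libraries against 3 an exact permutation test cannot go below p = 0.1, so no class sum was given a call.

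Gla encodes α-galactosidase A, which cleaves terminal galactose from globosides and is deficient in Fabry disease. It was at 72.8, 79.1 and 75.7 FPKM in the β-TCP libraries, 41.3, 38.3 and 26.8 FPKM in the PCL libraries, 28.2, 36.7 and 20.3 FPKM in the hydrogel libraries and 35.4, 30.4 and 34.2 FPKM in the control libraries. The lowest β-TCP library was above the highest of all others, and the β-TCP libraries differed little among themselves. The log2 fold change was 1.16 against control (SE 0.21, limma adjusted p = 0.0180), 1.43 against hydrogel (SE 0.21, limma adjusted p = 0.00924) and 1.10 against PCL (SE 0.21, limma adjusted p = 0.0476). The call against PCL was lost under 16 of 21 alternatives, where the adjusted p went up to 0.217.

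Naglu and Gusb act on glycosaminoglycans: Naglu encodes the α-N-acetylglucosaminidase of heparan sulfate breakdown and Gusb encodes β-glucuronidase. For Naglu the values were 51.7, 54.02 and 52.8 FPKM in β-TCP, 32.7, 33.9 and 27.2 FPKM in PCL, 22.8, 29.98 and 16.5 FPKM in hydrogel and 34.2, 24.8 and 29.8 FPKM in control libraries. Its log2 fold change was 0.83 against control (SE 0.19, limma adjusted p = 0.0401) and 1.20 against hydrogel (SE 0.19, adjusted p = 0.0116). Gusb stood at 177, 180.0 and 177 FPKM in β-TCP, 126, 113 and 92.3 FPKM in PCL, 83.2, 103 and 59.7 FPKM in hydrogel and 97.6, 86.9 and 95.2 FPKM in control libraries. Both genes were higher in every β-TCP library than in any other library, and Gusb had a log2 fold change of 0.93 against control (SE 0.18, limma adjusted p = 0.0227) and 1.14 against hydrogel (SE 0.18, adjusted p = 0.0113). The call of Naglu against control was lost under 13 of 21 alternatives, and that of Gusb under 5.

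Other glycosidases that rose were Galc, which removes galactose from galactosylceramide (log2 fold change 0.81 against control), Manba, the β-mannosidase (0.70), and, against hydrogel, Hyal1, a hyaluronidase (1.06), Hexa, which acts on gangliosides (0.92), Glb1, the β-galactosidase (0.92), and Fuca1, an α-fucosidase (0.66). The calls of Galc and Manba against control and of Fuca1 against hydrogel were each lost under 12 of 21 alternatives. Those of Hyal1 and Glb1 were lost under 10, and that of Hexa under 4.

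Sulfatases remove sulfate from glycosaminoglycans and sulfatides. Of the 6 tested, Sgsh and Galns rose against control and against hydrogel, and the class median log2 fold change was 0.33 against control and 0.77 against hydrogel. Sgsh encodes the heparan N-sulfatase and was at 14.4, 16.98 and 18.7 FPKM in β-TCP, 8.96, 10.7 and 12.1 FPKM in PCL, 7.44, 6.79 and 5.04 FPKM in hydrogel and 7.21, 6.16 and 4.95 FPKM in control libraries. The order of the groups was β-TCP, then PCL, then hydrogel and control, and the PCL libraries also lay above every hydrogel and control library. Sgsh had a log2 fold change of 1.32 against control (SE 0.17, limma adjusted p = 0.00895) and 1.26 against hydrogel (SE 0.17, adjusted p = 0.00880). Over the 21 alternatives its change against control stayed between 1.20 and 1.45, and the adjusted p reached 0.0692 in the 3 fits that lacked or averaged β-TCP library 2 or 3.

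Galns encodes the galactosamine 6-sulfatase, which acts on keratan sulfate and chondroitin sulfate. The values of Galns were 21.1, 25.05 and 26.01 FPKM in β-TCP, 14.8, 14.2 and 11.6 FPKM in PCL, 13.03, 15.1 and 9.76 FPKM in hydrogel and 14.3, 12.3 and 11.6 FPKM in control libraries. No β-TCP library overlapped any other group, and the log2 fold change was 0.87 against control (SE 0.16, limma adjusted p = 0.0212) and 0.89 against hydrogel (SE 0.16, adjusted p = 0.0162). Arsb, the arylsulfatase of dermatan sulfate, had the highest mean of the class with 309, 242 and 249 FPKM in β-TCP, 171, 209 and 143 FPKM in PCL, 189, 182 and 84.3 FPKM in hydrogel and 264, 197 and 171 FPKM in control libraries. Here the groups overlapped, and neither the log2 fold change of 0.35 against control (adjusted p = 0.629) nor that of 0.89 against hydrogel (adjusted p = 0.0796) passed.

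The lipid hydrolases and their activators showed the highest class median against control, 0.996 over 7 tested genes, of which 5 rose. Gm2a, the activator that presents GM2 ganglioside for breakdown, had its highest mean in the PCL group. Its values were 322, 475 and 479 FPKM in β-TCP, 744, 519.5 and 433 FPKM in PCL, 232, 301 and 220.0 FPKM in hydrogel and 245, 196 and 120.4 FPKM in control libraries. The β-TCP and PCL libraries overlapped, and both lay above all hydrogel and control libraries. Against control, the log2 fold change was 1.22 in β-TCP (SE 0.29, limma adjusted p = 0.0405) and 1.61 in PCL (SE 0.29, limma adjusted p = 0.0540). PCL thus missed the threshold narrowly, and the call in β-TCP was lost under 9 of 21 alternatives.

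Ppt1 and Asah1 followed the more common pattern, highest in β-TCP. Ppt1 encodes palmitoyl-protein thioesterase, which removes fatty acids from proteins, and was at 237, 287 and 298 FPKM in β-TCP, 216, 154 and 121 FPKM in PCL, 130.4, 166 and 89.7 FPKM in hydrogel and 119, 105 and 132 FPKM in control libraries. It had a log2 fold change of 1.20 against control (SE 0.24, limma adjusted p = 0.0266) and 1.12 against hydrogel (SE 0.24, adjusted p = 0.0282). Asah1, the acid ceramidase, had 119, 146 and 142 FPKM in β-TCP, 96.9, 90.7 and 68.1 FPKM in PCL, 60.9, 81.6 and 52.6 FPKM in hydrogel and 68.3, 60.5 and 73.97 FPKM in control libraries. Every β-TCP library was above every other library for both genes, and the log2 fold change of Asah1 was 0.996 against control (SE 0.18, limma adjusted p = 0.0197) and 1.07 against hydrogel (SE 0.18, adjusted p = 0.0131).

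Psap, the precursor of the saposins that help hydrolases reach their lipid substrates, was the most abundant gene of its class. Psap stood at 804, 1318 and 1341 FPKM in β-TCP, 1024, 966 and 788 FPKM in PCL, 622, 754 and 574 FPKM in hydrogel and 650.0, 555 and 491 FPKM in control libraries. β-TCP library 1 lay inside the PCL range while libraries 2 and 3 lay above it, and all β-TCP libraries exceeded all hydrogel and control libraries. The log2 fold change against control was 1.0001 (SE 0.21, limma adjusted p = 0.0284), and against hydrogel 0.80 (adjusted p = 0.0509). Pla2g15, a lysosomal phospholipase, rose by a log2 fold change of 0.88 against control and 0.75 against hydrogel. Smpd1, the acid sphingomyelinase, was at 57.6, 54.4 and 55.5 FPKM in β-TCP and 63.7, 51.2 and 73.4 FPKM in control libraries, and did not pass (log2 fold change -0.15, adjusted p = 0.772). Psapl1, a gene related to Psap, had 0 fragments in every library and was not tested.

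**Figure D3:**
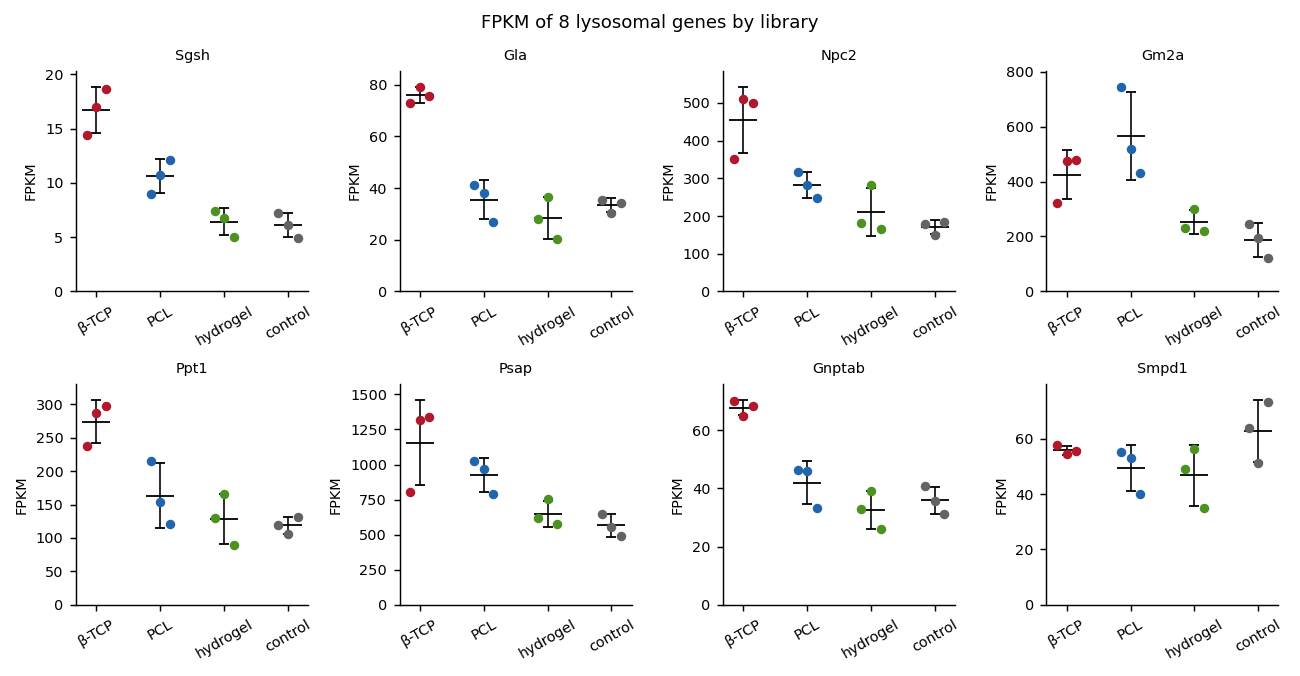
FPKM (vertical axis, starting at 0) of 8 lysosomal genes in the 12 libraries by group (horizontal axis), with points for libraries, a wide bar for the group mean and whiskers for ± 1 SD. Sgsh, Gla, Npc2, Ppt1 and Gnptab are highest in all 3 β-TCP libraries, Gm2a is highest on average in the PCL group, and Smpd1 shows no separation, with 57.6, 54.4 and 55.5 FPKM in the β-TCP group.

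Of the 7 phosphatases, nucleases, amidases and peptidases, Tpp1, Dnase2 and Entpd4 rose against control and these and Acp2 rose against hydrogel. Tpp1 encodes a tripeptidyl peptidase and had 166, 159 and 166 FPKM in β-TCP, 127, 119.9 and 94.2 FPKM in PCL, 91.3, 98.8 and 62.9 FPKM in hydrogel and 99.9, 80.5 and 78.8 FPKM in control libraries. Its log2 fold change was 0.92 against control (SE 0.18, limma adjusted p = 0.0221) and 0.97 against hydrogel (SE 0.18, adjusted p = 0.0162). Dnase2, the acid DNase that digests the DNA of engulfed cells, was at 77.9, 94.4 and 91.6 FPKM in β-TCP, 58.5, 54.7 and 46.8 FPKM in PCL, 47.5, 49.1 and 34.6 FPKM in hydrogel and 49.3, 39.98 and 50.2 FPKM in control libraries. The β-TCP libraries of both genes stood clear of the others, and Dnase2 had a log2 fold change of 0.91 against control (SE 0.16, limma adjusted p = 0.0166) and 1.004 against hydrogel (SE 0.16, adjusted p = 0.0113).

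Acp2, the lysosomal acid phosphatase, was at 23.7, 30.2 and 29.3 FPKM in β-TCP, 19.4, 18.8 and 15.9 FPKM in PCL, 17.5, 17.9 and 10.7 FPKM in hydrogel and 18.7, 14.9 and 17.1 FPKM in control libraries. It passed against hydrogel (log2 fold change 0.84, SE 0.19, limma adjusted p = 0.0315) and not against control (0.68, adjusted p = 0.0676), and the difference between those contrasts was not tested. The call of Acp2 was lost under 8 of 21 alternatives. Entpd4, a nucleoside diphosphatase, rose by 0.77 against control and 0.72 against hydrogel on the log2 scale. Napsa, an aspartic peptidase, had 35.4, 39.4 and 36.2 FPKM in β-TCP, 46.4, 90.2 and 84.9 FPKM in PCL, 55.4, 63.01 and 64.6 FPKM in hydrogel and 72.3, 46.1 and 7.23 FPKM in control libraries, with its lowest value in control library 3. It passed no test, and neither did Aga, the amidase of glycoasparagines (log2 fold change 0.33 against control, adjusted p = 0.371).

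Of the structural membrane proteins 0 of 9 tested passed against control in limma, with 6 higher and 0 lower at an unadjusted p under 0.05, 1 higher in limma-voom and 3 higher without control library 3. Over all genes tested, 4.22% rose against control in limma, and 1857 of 12633 were higher and 411 lower at an unadjusted p under 0.05. All 9 structural membrane proteins had positive log2 fold changes (0.12 to 0.87, median 0.50). Against hydrogel, Litaf and Cd63 rose. Cd63, a tetraspanin of late endosomes and lysosomes, had the highest mean of the class, with 559, 636 and 633 FPKM in β-TCP, 465, 404 and 321 FPKM in PCL, 293, 369.7 and 169.6 FPKM in hydrogel and 318, 259 and 448 FPKM in control libraries. Control library 3 lay close to the PCL libraries and far above the other control libraries, and the log2 fold change was 1.20 against hydrogel (SE 0.28, limma adjusted p = 0.0356) and 0.87 against control (SE 0.28, adjusted p = 0.113). The call of Cd63 against hydrogel was lost under 10 of 21 alternatives. Litaf, a small protein of the endosomal membrane, was at 66.1, 109 and 108 FPKM in β-TCP, 71.2, 74.96 and 56.5 FPKM in PCL, 42.4, 45.9 and 26.9 FPKM in hydrogel and 50.8, 41.7 and 60.96 FPKM in control libraries. β-TCP library 1 overlapped the PCL group, and the log2 fold change was 1.27 against hydrogel (SE 0.25, limma adjusted p = 0.0204).

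Lamp1 and Lamp2, the major glycoproteins of the lysosomal membrane, did not pass against control or hydrogel. Lamp1 had 192, 282 and 289 FPKM in β-TCP, 202, 197 and 188 FPKM in PCL, 169.9, 192 and 149.7 FPKM in hydrogel and 187, 153 and 218 FPKM in control libraries, so that β-TCP library 1 overlapped the PCL, hydrogel and control groups. Its log2 fold change against control was 0.44 (SE 0.18, limma adjusted p = 0.220), and that of Lamp2 was 0.50 (adjusted p = 0.219). Laptm5, a lysosomal protein of blood cells, was at 279.9, 291 and 298 FPKM in β-TCP and 211, 189.8 and 98.3 FPKM in control libraries (log2 fold change 0.87, adjusted p = 0.0668). Lamp3 stayed under 1 FPKM in all libraries and was not tested.

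Among the 10 transporters and channels, the cholesterol exporters Npc1 and Npc2 both rose in the β-TCP group against control and against hydrogel. Npc2 is the soluble protein that takes cholesterol from internal membranes and Npc1 is the membrane protein that receives it. Npc2 was at 353, 509.8 and 500.2 FPKM in β-TCP, 316, 282 and 247 FPKM in PCL, 181, 283 and 166 FPKM in hydrogel and 178, 150.3 and 184 FPKM in control libraries. The β-TCP libraries were above all others, and the log2 fold change of 1.39 against control (SE 0.21, limma adjusted p = 0.0125) was the largest of all lysosomal genes in that contrast. Against hydrogel it was 1.13 (SE 0.21, adjusted p = 0.0187).

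Npc1 was at 23.1, 23.8 and 25.1 FPKM in β-TCP, 18.2, 16.5 and 12.3 FPKM in PCL, 12.7, 15.2 and 10.7 FPKM in hydrogel and 14.9, 12.8 and 14.7 FPKM in control libraries. It rose by 0.73 against control (SE 0.16, limma adjusted p = 0.0307) and 0.86 against hydrogel (SE 0.16, adjusted p = 0.0162) on the log2 scale, and was thus lower in level and smaller in change than Npc2. The call of Npc1 against control was lost under 11 of 21 alternatives. Slc17a5, the exporter of sialic acid, rose against hydrogel (log2 fold change 0.72, SE 0.18, limma adjusted p = 0.0451), a call lost under 14 of 21 alternatives. The calcium channel Mcoln1 (log2 fold change 0.24 against control), the cystine exporter Ctns (0.19), Cln3 (0.47), Mfsd8 (0.12), Abca2 (0.47) and Abcb9 (-0.33) did not pass.

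Of 7 genes of enzyme maturation and sorting, Gnptab rose against control, and Gnptab, Igf2r and Sumf1 rose against hydrogel. Gnptab encodes the catalytic subunits of the enzyme that starts the mannose 6-phosphate tag, and was at 69.9, 64.9 and 68.2 FPKM in β-TCP, 46.4, 46.1 and 33.3 FPKM in PCL, 32.8, 38.99 and 25.9 FPKM in hydrogel and 40.8, 35.5 and 31.2 FPKM in control libraries. Its β-TCP libraries lay above all others, with a log2 fold change of 0.91 against control (SE 0.17, limma adjusted p = 0.0212) and 1.05 against hydrogel (SE 0.17, adjusted p = 0.0121). Gnptg, the γ subunit of the same enzyme, had 14.8, 13.5 and 14.6 FPKM in β-TCP and 14.2, 13.97 and 13.01 FPKM in control libraries. For Gnptg the log2 fold change of 0.06 did not pass (adjusted p = 0.861).

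Igf2r, the large receptor for mannose 6-phosphate, had 51.96, 61.2 and 62.1 FPKM in β-TCP, 48.1, 44.1 and 33.3 FPKM in PCL, 29.3, 35.1 and 23.3 FPKM in hydrogel and 38.7, 31.9 and 60.9 FPKM in control libraries. Control library 3 was as high as the β-TCP libraries and the other control libraries were not, and Igf2r passed against hydrogel (log2 fold change 0.99, SE 0.24, limma adjusted p = 0.0382) but not against control (0.45, adjusted p = 0.369). The call of Igf2r was lost under 11 of 21 alternatives. Sumf1, which activates the sulfatases by modifying a cysteine, was at 22.2, 25.8 and 27.6 FPKM in β-TCP, 19.97, 20.7 and 16.1 FPKM in PCL, 15.5, 19.1 and 12.5 FPKM in hydrogel and 19.1, 16.3 and 19.3 FPKM in control libraries. The β-TCP libraries stood above all others, with a log2 fold change of 0.66 against hydrogel (SE 0.16, limma adjusted p = 0.0402). The call of Sumf1 was lost under 11 of 21 alternatives. M6pr, the small receptor, was at 3.32, 3.07 and 3.15 FPKM in β-TCP, 2.19, 1.56 and 5.75 FPKM in PCL, 1.96, 2.10 and 1.98 FPKM in hydrogel and 2.24, 1.38 and 2.35 FPKM in control libraries, on 77 to 352 fragments, and did not pass.

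The coat and adaptor subunits, which bud the vesicles that carry hydrolases and many other cargoes, did not follow the hydrolases. Of 23 tested, 0 passed in either direction against control, hydrogel or PCL in limma or in limma-voom. Over all genes tested, 4.22% rose against control, 5.17% against hydrogel and 0.57% against PCL in limma. At an unadjusted p under 0.05 in limma, 2 were higher and 0 lower than in control and 2 higher and 4 lower than in hydrogel. Over all 12633 genes these counts were 1857 and 411 against control, and 2039 and 2301 against hydrogel. Without control library 3, 2 were called higher and 5 lower than in hydrogel, where 1843 of all 12588 genes were higher and 2885 lower. The median log2 fold change was 0.09 against control, where it was -0.08 without control library 3, and -0.08 against hydrogel. The summed FPKM was 634 ± 17.4 in β-TCP, 632 ± 17.0 in PCL, 643 ± 15.6 in hydrogel and 590 ± 64.0 in control libraries (SD, n = 3 each). Clta, a clathrin light chain, was at 139, 142 and 144 FPKM in β-TCP, 135, 129.8 and 136 FPKM in PCL, 129, 139 and 131 FPKM in hydrogel and 123, 128 and 129.9 FPKM in control libraries (log2 fold change 0.15 against control, adjusted p = 0.365). Cltc, the clathrin heavy chain, was at 91.5, 95.5 and 95.96 FPKM in β-TCP, 96.1, 102 and 109.7 FPKM in PCL, 99.1, 88.97 and 92.2 FPKM in hydrogel and 87.4, 93.5 and 77.4 FPKM in control libraries, with overlapping groups (log2 fold change 0.13, adjusted p = 0.578). Ap3d1, a subunit of the AP-3 adaptor, was the 1 gene of the class whose β-TCP libraries were above all 9 others (42.4, 42.996 and 43.3 FPKM against at most 41.4), by a log2 fold change of 0.22 against control that did not pass (adjusted p = 0.399). Ap1m2 and Ap3b2 were under 1 FPKM and were not tested.

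Of the genes outside these classes, Mcpt8l2 and Mcpt8l3 are annotated as mast cell protease genes. Reads shared between them could have been split in the counting, so their values are uncertain. Mcpt8l2 was at 26.04, 14.03 and 16.6 FPKM in β-TCP, 54.1, 34.4 and 38.9 FPKM in PCL, 69.4, 53.6 and 61.9 FPKM in hydrogel and 72.8, 57.7 and 13.8 FPKM in control libraries. Control library 3 was as low as the β-TCP libraries, and Mcpt8l2 did not pass the adjusted test (log2 fold change -1.69 against hydrogel, adjusted p = 0.0665).

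The comparisons without β-TCP gave few differences. In PCL against control limma called 0 of 88 lysosomal genes, where 0.277% of all genes passed, and limma-voom called 1. At an unadjusted p under 0.05 in limma, 12 were higher and 0 lower, where 1400 of all 12633 genes were higher and 927 lower. By the 2-fold rule 1 passed (Gm2a), where 3.64% of all genes did. In hydrogel against control limma and limma-voom called 0, where 0.00792% of all genes passed in limma. By the 2-fold rule 0 passed, where 2.29% of all genes did. At an unadjusted p under 0.05 in limma, 3 were higher and 2 lower, where 1089 of all genes were higher and 805 lower. The lysosomal balance turned to 2 higher and 11 lower with median-of-ratios scaling or without hydrogel library 2. It was 2 higher and 10 lower in limma-voom, and 5 higher and 9 lower without control library 2. All genes gave 441 higher and 1301 lower with median-of-ratios scaling, and 954 and 1109 without hydrogel library 2. They gave 397 and 1243 in limma-voom, and 3567 and 1363 without control library 2. In PCL against hydrogel limma and limma-voom called 0, where 0.103% of all genes passed in limma. At an unadjusted p under 0.05 in limma, 10 were higher and 1 lower, where 365 of all genes were higher and 675 lower. By the 2-fold rule 1 (Gm2a) passed, where 0.768% of all genes did. Gm2a dropped out of the last comparison without PCL library 1, 2 genes passed the 2-fold rule in PCL against control without control library 1, and 1 gene passed the 2-fold rule in hydrogel against control without control library 1 or without control library 2. The median log2 fold change of the lysosomal genes was 0.08 in PCL against control, 0.02 in hydrogel against control and 0.11 in PCL against hydrogel, against 0.04, 0.14 and -0.06 over all genes.

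Within the β-TCP group, the lysosomal genes differed in how library 1 compared with libraries 2 and 3. The ratio of library 1 to the mean of libraries 2 and 3 had a median of 0.944 over the 88 tested genes and ranged from 0.600 to 1.70. Of the 18 genes called against control, 4 had a ratio under 0.8, namely Galc (0.600), Psap (0.605), Gm2a (0.674) and Npc2 (0.698). Others were nearly level, among them Gusb (0.992), Naglu (0.968), Gla (0.941), Tpp1 (1.02) and Gnptab (1.05). By class the median ratio was 0.826 for lipid hydrolases and activators, 0.860 for structural membrane proteins, 0.946 for glycosidases and 1.05 for enzyme maturation and sorting. Over marker lists it was 0.620 for macrophage markers and 1.12 for osteoclast markers. Since libraries 2 and 3 were nearly alike, this compares in effect 2 measurements, and no test was made.

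Many markers of macrophages and osteoclasts, which are rich in lysosomes, were also higher in the β-TCP group. Of 17 macrophage markers tested 12 rose against control (median log2 fold change 1.31), 7 against hydrogel and 3 against PCL, and of 11 osteoclast markers 4 rose against control (median 0.83), 9 against hydrogel and 1 against PCL. Over all genes tested, 4.22% rose against control, 5.17% against hydrogel and 0.57% against PCL. The marker lists are not separate from lysosomal genes. Cd68 among macrophage markers, and Acp5, Ctsk, Atp6v0d2 and Tcirg1 among osteoclast markers, are of the kinds that the rule left out. The osteoclast markers called against control were Ctsk, Atp6v0d2, Tcirg1 and Calcr, and of these only Calcr is not such a gene. With β-TCP libraries 2 and 3 averaged, 1 macrophage marker and 0 osteoclast markers rose against control in limma, and 14 and 7 were higher at an unadjusted p under 0.05, whereas limma-voom on all libraries called 10 and 1. Over all genes the averaged fit called 8 higher, with 1286 of 12576 higher at an unadjusted p under 0.05, and limma-voom called 318 higher. With the pair averaged 0 of either list passed against hydrogel or PCL in limma, with 12 macrophage and 10 osteoclast markers higher than in hydrogel, and 8 and 9 higher than in PCL, at an unadjusted p under 0.05. Of all genes in that fit, 2 passed against hydrogel and 1 against PCL, with 1389 and 985 higher at an unadjusted p under 0.05. Limma-voom on all libraries called 11 macrophage and 9 osteoclast markers higher than in hydrogel and 0 of either list against PCL. Of all genes, it called 915 higher than in hydrogel and 39 higher than in PCL. Without control library 3, 15 macrophage and 10 osteoclast markers were called higher than in hydrogel and 7 of each list higher than in PCL, and 1 of each list was called lower in both comparisons. Of all 12588 genes in that fit, 1843 were called higher and 2885 lower than in hydrogel, and 818 and 1087 than in PCL. The macrophage markers summed to 1563 to 2332 FPKM in β-TCP, 1041 to 1332 FPKM in PCL, 803 to 1239 FPKM in hydrogel and 810 to 1039 FPKM in control libraries. The osteoclast markers, most of whose sum was Ctsk, stood at 10155 to 10677 FPKM in β-TCP, 5326 to 6224 FPKM in PCL, 3313 to 5950 FPKM in hydrogel and 4385 to 5864 FPKM in control libraries. Marco among macrophage markers and Dcstamp among osteoclast markers were at or near 0 in all libraries and were not tested. In bulk tissue, more cells of a type and more RNA of these genes per cell cannot be told apart, and the part of these cells in the lysosomal result was not tested.

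The largest changes among these markers were those of Vsig4, a complement receptor of resident macrophages (log2 fold change 2.81 against control), the scavenger receptor Msr1 (2.12) and the lipid receptor Trem2 (2.06). Among osteoclast markers they were those of the calcitonin receptor Calcr (1.86), the proton pump subunit Atp6v0d2 (1.28) and Ctsk, cathepsin K (1.25). Some markers were lower in β-TCP without passing the adjusted test. Cd163, a hemoglobin scavenger receptor of macrophages, had 8.30, 6.54 and 5.93 FPKM in β-TCP, 15.9, 12.8 and 19.1 FPKM in PCL, 21.99, 22.1 and 27.7 FPKM in hydrogel and 14.6, 20.6 and 3.78 FPKM in control libraries, with log2 fold changes of -0.58 against control, -1.66 against hydrogel (adjusted p = 0.0521) and -1.09 against PCL. The log2 fold change of Car2, carbonic anhydrase 2, was 0.04 against control, -1.26 against hydrogel and -1.74 against PCL (adjusted p = 0.186), and by the 2-fold rule Cd163 was lower than in hydrogel and PCL and Car2 lower than in PCL. Ctsk had 6919.6, 6883 and 6866 FPKM in β-TCP, 3074, 3418 and 2359 FPKM in PCL, 2706, 3693 and 1614 FPKM in hydrogel and 3118, 2157 and 3579.7 FPKM in control libraries. Neutrophil, erythroid, skeletal muscle and osteoblast markers gave 0 calls in β-TCP against control in limma and in limma-voom, with 1 osteoblast marker lower and 0 others at an unadjusted p under 0.05 in limma. Over all genes tested, 4.22% rose and 0.562% fell in limma, and 1857 of 12633 were higher and 411 lower at an unadjusted p under 0.05. Without control library 3, 9 of 9 neutrophil markers were lower than in control at an unadjusted p under 0.05 and 2 passed (median log2 fold change -1.63, against -0.62 with all libraries), and 8 of 9 erythroid markers were lower and 0 passed (median -1.35, against 0.30). Of all 12588 genes in that fit, 650 were called lower, and 2486 were lower at an unadjusted p under 0.05. Erythroid markers had a median of -1.92 against hydrogel and -2.36 against PCL, where 0 passed with all libraries in limma or limma-voom, with 0 and 2 lower at an unadjusted p under 0.05 in both tools, and 9 of 9 fell in each without control library 3. Of all genes, 2301 and 1180 were lower at an unadjusted p under 0.05 in limma with all libraries. Without control library 3, 2885 and 1087 of all genes fell. Of 9 cartilage markers 5 fell against control (Acan, Sox9, Matn3, Comp and Hapln1), 3 without control library 3 and 0 with β-TCP libraries 2 and 3 averaged, when 9 were lower at an unadjusted p under 0.05. Over all genes 71 fell, 650 without control library 3 and 0 with the pair averaged, when 241 were lower at an unadjusted p under 0.05. Neutrophil markers summed to 854 to 1220 FPKM in β-TCP, 1814 to 5653 FPKM in PCL, 2226 to 4583 FPKM in hydrogel and 40.8 to 3131 FPKM in control libraries, and their part in the lysosomal result was not tested either.

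**Figure D4:**
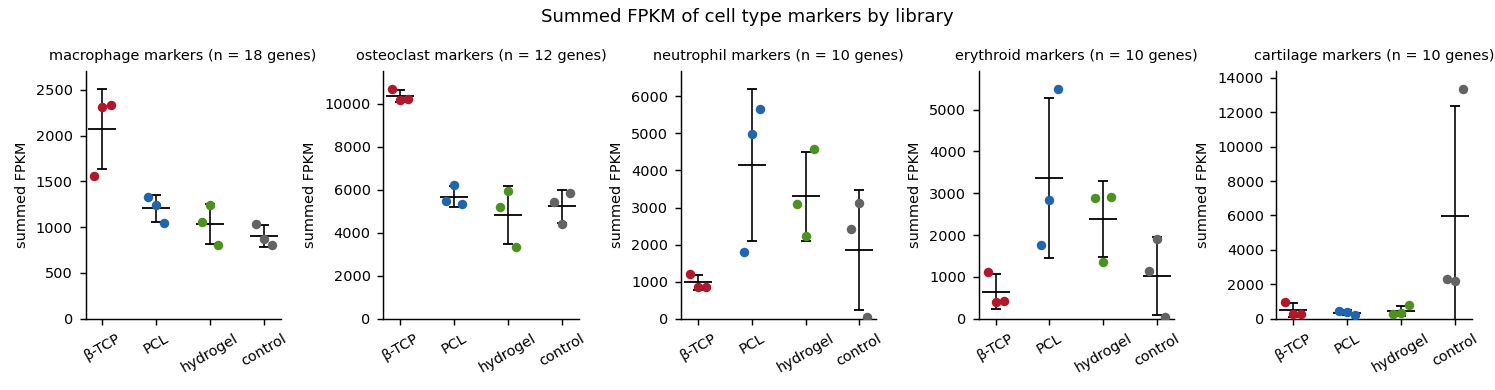
Summed FPKM of 5 lists of cell type markers (vertical axis) in the 12 libraries by group (horizontal axis), with points for libraries, a wide bar for the group mean and whiskers for ± 1 SD (cut at 0). Macrophage and osteoclast markers are highest in the β-TCP group (1563 to 2332 and 10155 to 10677), and control library 3 stands apart in cartilage markers at 13351.

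Genes that regulate or accompany the lysosome were counted in the same fit. Of 18 genes of the MiT/TFE factors and lysosomal nutrient sensing, 9 rose in β-TCP against control (Tfec, Mitf, Fnip1, Fnip2, Lamtor1, Lamtor3, Lamtor5, Rragc and Rragd) and 6 against hydrogel, with a median log2 fold change of 0.42 against control. Over all genes tested, 4.22% rose against control and 5.17% against hydrogel. With β-TCP libraries 2 and 3 averaged, 0 passed against control in limma, with 12 higher at an unadjusted p under 0.05, and limma-voom on all libraries called 5. Over all genes the averaged fit called 8 higher, with 1286 of 12576 higher at an unadjusted p under 0.05, and limma-voom called 318 higher. Mitf was at 12.5, 13.8 and 14.1 FPKM in β-TCP, 9.86, 9.47 and 6.06 FPKM in PCL, 6.54, 7.10 and 3.50 FPKM in hydrogel and 7.39, 4.93 and 6.14 FPKM in control libraries (log2 fold change 1.03, SE 0.24, limma adjusted p = 0.0399). Tfec, a family member of the macrophage lineage, was at 4.83, 8.75 and 9.25 FPKM in β-TCP, 4.53, 3.91 and 3.13 FPKM in PCL, 2.94, 4.01 and 3.55 FPKM in hydrogel and 3.39, 3.70 and 2.51 FPKM in control libraries (1.002, SE 0.22, adjusted p = 0.0331). Both factors were higher in every β-TCP library than in any other, and Rragd, a Rag GTPase, had a log2 fold change of 0.88. The best known regulators of lysosomal genes, Tfeb (0.24, adjusted p = 0.640) and Tfe3 (0.36, adjusted p = 0.267), did not pass.

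Lysosomal proteins outside the set described here gave 6 higher of 18 against control (Grn, Gpnmb, Clcn7, Ostm1, Cd68 and Ifi30) and 9 against hydrogel, where 4.22% and 5.17% of all genes rose. Of these proteins, Cd68 is one of the genes that the rule left out by name. With the pair averaged 0 passed against control, with 10 higher at an unadjusted p under 0.05, and limma-voom on all libraries called 6. Over all genes the averaged fit called 8 higher, with 1286 of 12576 higher at an unadjusted p under 0.05, and limma-voom called 318 higher. Gpnmb, a membrane glycoprotein of macrophages and osteoclasts, was at 732, 1373 and 1381 FPKM in β-TCP, 1617, 1127 and 947 FPKM in PCL, 269.7, 442 and 169 FPKM in hydrogel and 302, 244 and 350.1 FPKM in control libraries. Like Gm2a it was high in both the β-TCP and the PCL libraries, which overlapped, and its log2 fold change was 1.91 in β-TCP against control (SE 0.36, limma adjusted p = 0.0212). Cd68, a macrophage membrane protein (1.31), and Ifi30, a thiol reductase of antigen processing (1.21), followed, and Cd68 is also in the macrophage list. Clcn7 and Ostm1, the subunits of the lysosomal chloride exchanger that osteoclasts need to resorb bone, had log2 fold changes of 0.89 and 0.68. Of 16 autophagy genes 0 passed against control in limma or limma-voom, with 3 higher at an unadjusted p under 0.05 in limma and 1 called higher without control library 3, and the median log2 fold change was 0.11. Over all genes tested, 4.22% rose against control in limma, and 1857 of 12633 were higher at an unadjusted p under 0.05. Without control library 3, 674 of all 12588 genes were called higher.

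Promoter windows, 250 bases before to 50 after the start of a gene, were read from RefSeq (build GRCr8), since MiT/TFE factors bind the E-box element GTCACGTG in many lysosomal genes. Of the 93 genes 76 matched a window, and 13 of these (17.1%) held GTCACGTG or its reverse complement CACGTGAC, against 575 of 27457 genes with a window (2.09%). The E-box core CACGTG, which lies inside each of those matches, was in 16 (21.1%) and in 1943 (7.08%). By class, GTCACGTG was in 4 of 6 genes of enzyme maturation and sorting, 4 of 12 glycosidases, 2 of 9 structural membrane proteins, 2 of 9 transporters and channels, 1 of 4 sulfatases, 0 of 5 lipid hydrolases and activators, and 0 of 24 coats and adaptors. It was in 0 of 4 phosphatases, nucleases, amidases and peptidases and in 0 of 3 genes outside the classes. Counting only genes with a window, it was in 5 of 23 called in β-TCP against control or hydrogel. Among tested genes with a window that were not called there, it was in 8 of 49. A match is a description of the sequence and not a measured binding site.

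The match nearest the gene start within the part before it is shown for the 5 called genes (Sgsh, Galc, Glb1, Igf2r and Sumf1) and for Lamp1, whose window held 4 separate matches and whose RNA did not pass. Each line gives 60 bases around that match, all before the gene start, on the strand of the gene, 5′ to 3′, with GTCACGTG or its reverse complement in capitals. The first capitals of the Lamp1 line are the end of a second match that begins outside the window shown. The other genes with the element were Cd164, Cln3, Gaa, Gnptg, Idua, Mcoln1 and Nagpa. Coordinates are of GRCr8 and are not those of the build used for the expression table.
Sgsh (chr10:105112013-105112072, minus strand): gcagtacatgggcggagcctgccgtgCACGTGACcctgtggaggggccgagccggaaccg
Galc (chr6:123245560-123245619, minus strand): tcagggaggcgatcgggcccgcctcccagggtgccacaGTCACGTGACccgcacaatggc
Glb1 (chr8:122963590-122963649, plus strand): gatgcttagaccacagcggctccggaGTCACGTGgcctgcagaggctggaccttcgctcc
Igf2r (chr1:50526766-50526825, plus strand): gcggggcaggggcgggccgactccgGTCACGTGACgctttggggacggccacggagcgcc
Sumf1 (chr4:142716713-142716772, minus strand): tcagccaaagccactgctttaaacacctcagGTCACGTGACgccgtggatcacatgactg
Lamp1 (chr16:83075068-83075127, minus strand): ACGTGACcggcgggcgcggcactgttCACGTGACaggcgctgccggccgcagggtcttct
Galc, Igf2r and Sumf1 held the palindrome in which both strands match, and Sgsh, Glb1 and Lamp1 held 8 matching bases with other flanks. Of these 6 genes Sgsh and Galc rose against control, whereas Glb1, Igf2r and Sumf1 passed against hydrogel alone.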

How the data were processed

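Total RNA from defect tissue was sequenced in 12 libraries, 4 groups of 3. Per the study's methods, the authors' FPKM came from Cufflinks after Trimmomatic trimming and HISAT2 alignment, and the submitters' processing notes also name Bowtie, HTSeq, DESeq, StringTie and the build Rnor_6.0. The deposited FPKM were used as given. Another 3 value columns whose names match no sample were not used. The values were whole multiples of 1 fragment (tolerance 0.01), which gave the depth and the fragments behind each gene; intervals were not formed from them. Genes at 1 FPKM or more in at least 3 libraries entered limma 3.58.1 (R 4.3.3) on log2(FPKM + 1) with all 4 groups and a mean-variance trend, and p-values were adjusted by the Benjamini-Hochberg method over 12633 genes. Fold changes on this scale understate the change of low genes. Every member called in any comparison was named, except a few that are not reported here, and up to 3 per class with the largest changes (or, with none called, the 2 most abundant) plus the most abundant member of each class were given in all libraries. Other genes were named after their values were seen. The members, classes and marker lists were chosen with earlier results of these data known. The alternatives were other pseudocounts, filters and scalings, a fit of only the groups compared, a replicate block, averaging β-TCP libraries 2 and 3, leaving out each library, and, chosen after seeing the data, limma-voom on fragments.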

Additional observations from a re-analysis of the deposited data

How the results depend on the processing

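Each gene called kept the sign of its change under the 21 alternatives to the fit, and the ratio of summed lysosomal FPKM in β-TCP over control stayed between 1.504 and 1.65 where hemoglobin or 1 library was left out or the close pair was averaged. The counts at an adjusted p under 0.05 moved. In β-TCP against control, 18 became 8 with only those 2 groups in the fit, 0 with β-TCP libraries 2 and 3 averaged, and 0 to 25 on leaving out 1 library. In β-TCP against hydrogel, 29 became 53 (44 higher, 9 lower), 0 and 0 to 57 in the same order. In β-TCP against PCL, 1 became 35 (29 higher, 6 lower), 0 and 0 to 27, and 0 with a pseudocount of 0.1 FPKM, no filter, median-of-ratios scaling, hemoglobin left out of the total or limma-voom. Of all genes, the fits of only 2 groups called 120 higher and 4 lower in β-TCP against control. Against hydrogel they called 1605 higher and 2646 lower, and against PCL 963 and 1226. In PCL against control, 0 became 1 with median-of-ratios scaling, hemoglobin left out or limma-voom, and 0 to 1 on leaving out 1 library. By the 2-fold rule, leaving out 1 library gave 5 to 10 for β-TCP against control, 4 to 23 against hydrogel and 0 to 3 against PCL, 1 to 2 for PCL against control, and 0 to 1 for hydrogel against control and for PCL against hydrogel. That rule gave 7 against hydrogel with hemoglobin left out and 21 with limma-voom, and 5 against PCL with a pseudocount of 0.1 FPKM. The cause of these moves was not tested. Leaving out hemoglobin moved the all-gene median (log2) to -0.21 in β-TCP against hydrogel, -0.15 in β-TCP against PCL, 0.18 in PCL against control and 0.25 in hydrogel against control, and the lysosomal median minus that of all genes was then 0.56, 0.27, 0.05 and -0.13. Median-of-ratios scaling turned the lysosomal median in hydrogel against control to -0.11.

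The correlation of deviations of same-numbered libraries ran from -0.61 to 0.47, over 0.1 in 4 of 18 pairs. With 3 libraries per group, this cannot settle whether the replicate numbers pair the libraries. With the replicate number as a block, 11 genes passed in β-TCP against control, 18 against hydrogel and 0 against PCL.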
